A study of Homo sapiens with 6 samples.

Results

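The nuclear genes of oxidative phosphorylation were followed on GeneChip HTA 2.0 arrays of SCC25 cells, a human oral squamous carcinoma line. The members are 83 of 67528 transcript clusters, 1 cluster per gene. They are the protein-coding genes whose only symbol in the array annotation begins with NDUFA, NDUFB, NDUFC, NDUFS, NDUFV, UQCR, COX4, COX5, COX6, COX7, COX8 or ATP5, or is an SDH subunit, and for a gene with more than 1 cluster the one with the highest mean was taken. TM treated cells had received tunicamycin (TM) at 5 µg/ml for 6 h (3 arrays), and control cells had received DMSO at 0.1% for the same time (3 arrays). All samples are the same line in culture, with no genetic change described, although 1 label field of the TM samples names SCC28. The labels do not say whether replicates were grown apart. The p-values thus measure spread among these arrays only, which may be technical.

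Oxidative phosphorylation takes place in the inner mitochondrial membrane. Complexes I and II feed electrons from NADH and succinate to ubiquinone, complex III passes them to cytochrome c, and complex IV hands them to oxygen, while complexes I, III and IV pump protons out of the matrix. The ATP synthase lets the protons back through a rotating ring and makes ATP. Most subunits are encoded in the nucleus and imported, whereas a few core subunits come from mitochondrial DNA, so both genomes have to be matched. Tunicamycin blocks N-linked glycosylation in the endoplasmic reticulum (ER) and sets off the unfolded protein response (UPR).

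A pair of arrays stood against their labels in the ER stress genes. DDIT3, which encodes the transcription factor CHOP, had a log2 signal of 9.04, 8.88 and 5.86 under the labels TM 1, 2 and 3, against 6.02, 6.01 and 9.28 under the labels control 1, 2 and 3. In the list of 12 ER stress genes, TM 3 lay above control 3 in 0 of 12. Results are therefore given for all 6 arrays and for replicates 1 and 2 alone, with the labels kept, and directions over all 6 arrays rest on the labels of the replicate 3 arrays. Of 12 squamous markers 9 were measured, at mean log2 signals of 8.76 to 13.2. Markers of fibroblasts (5.03 to 7.81, 6 of 7 measured), leukocytes (3.26 to 5.96, 5 of 6) and endothelium (4.06 to 6.05, 5 of 5) were also listed. With RNA of whole cultures, fewer cells of a kind and less RNA per cell cannot be told apart. The array medians over all clusters were 5.49 to 5.52 in the TM arrays and 5.39 to 5.48 in the control arrays.

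Upstream sequence of 6 members is shown because the group is known to be served by the factors NRF1, GABP (an ETS factor) and YY1. The first 3 read lower in TM 1 and 2 than in control 1 and 2, and the last 3 read higher. The 250 bases before each annotated start are from RefSeq (GRCh38.p14), read 5′ to 3′ along the gene, and capitals mark matches on either strand to the NRF1 core TGCGCA, the ETS site CCGGAAG or the YY1 site ATGGCGG. SDHD lies at chr11:112086623-112086872 (plus strand), COX5B at chr2:97645812-97646061 (plus), NDUFB6 at chr9:32573160-32573409 (minus), NDUFS7 at chr19:1383657-1383906 (plus), UQCR11 at chr19:1605463-1605712 (minus) and COX6A2 at chr16:31428361-31428610 (minus).
SDHD: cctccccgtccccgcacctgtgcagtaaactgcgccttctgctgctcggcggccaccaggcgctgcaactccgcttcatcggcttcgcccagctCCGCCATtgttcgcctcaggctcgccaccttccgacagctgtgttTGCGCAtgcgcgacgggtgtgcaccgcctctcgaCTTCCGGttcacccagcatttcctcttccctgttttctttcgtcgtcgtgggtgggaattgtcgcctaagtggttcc
COX5B: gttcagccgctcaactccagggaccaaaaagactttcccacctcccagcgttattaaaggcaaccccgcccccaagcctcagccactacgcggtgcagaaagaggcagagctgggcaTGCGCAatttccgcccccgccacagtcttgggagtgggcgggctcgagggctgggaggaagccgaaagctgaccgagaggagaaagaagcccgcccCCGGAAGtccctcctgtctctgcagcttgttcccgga
NDUFB6: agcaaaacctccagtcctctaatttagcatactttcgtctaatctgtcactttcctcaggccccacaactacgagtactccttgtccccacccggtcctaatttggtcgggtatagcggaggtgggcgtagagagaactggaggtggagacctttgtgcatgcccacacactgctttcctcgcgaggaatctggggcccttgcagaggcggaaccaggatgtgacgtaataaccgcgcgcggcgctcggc
NDUFS7: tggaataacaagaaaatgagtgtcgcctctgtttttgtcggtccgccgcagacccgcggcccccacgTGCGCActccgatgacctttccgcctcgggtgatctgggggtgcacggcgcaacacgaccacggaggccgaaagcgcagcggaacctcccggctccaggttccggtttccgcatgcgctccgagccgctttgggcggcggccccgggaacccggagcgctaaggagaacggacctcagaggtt
UQCR11: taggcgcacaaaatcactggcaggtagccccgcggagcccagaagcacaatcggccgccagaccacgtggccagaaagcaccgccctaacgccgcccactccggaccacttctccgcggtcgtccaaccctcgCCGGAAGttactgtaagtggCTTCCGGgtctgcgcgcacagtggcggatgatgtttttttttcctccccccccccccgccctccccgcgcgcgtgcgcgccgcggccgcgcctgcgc
COX6A2: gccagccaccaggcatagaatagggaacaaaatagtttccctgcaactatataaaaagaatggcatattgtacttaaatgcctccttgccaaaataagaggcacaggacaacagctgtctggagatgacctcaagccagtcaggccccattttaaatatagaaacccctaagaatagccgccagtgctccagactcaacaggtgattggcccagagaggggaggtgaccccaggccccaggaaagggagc

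SDHD holds all 3 motifs, COX5B an NRF1 core and an ETS site, NDUFS7 an NRF1 core and UQCR11 an ETS site in each orientation. NDUFB6 and COX6A2 hold none of these letters in this window. Promoter windows were found for 68 of the 83 members. The NRF1 core was in 16 of them (23.5%), against 9.10% of 15843 promoters of protein-coding genes of the same length. The ETS site was in 14 (20.6%, against 11.8%) and the YY1 site in 4 (5.88%, against 3.09%). At least 1 of the 3 was in 29 windows (42.6%, against 21.5%). Each of the 3 motifs holds the letters CG. The median ratio of observed to expected CG pairs was 0.85 in the member windows, against 0.74 in all promoters. The median GC content was 60.8%, against 62.4%. The part of base composition in the shares was not tested. The UPR element TGACGTGG, the ATF4 site TTGCATCA and the ER stress response element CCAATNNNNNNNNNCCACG were in 0 of the 68 windows, and in 0.682%, 0.587% and 0.12% of all promoters. Read on the opposite strand, the UPR element begins with CCACG, which also ends the ER stress response element. A match is a run of letters, not a bound site. Both the members that read lower and those that read higher in replicates 1 and 2 include promoters with and without matches.

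Over all 6 arrays no member passed the adjusted threshold. The count was 0 of 83 at a limma adjusted p under 0.05, where 0% of all 67528 clusters passed. At an unadjusted p under 0.05, 7 members were lower (8.43%) and 3 higher (3.61%) with TM, against 5.14% of all clusters lower and 15.3% higher. Among the 5884 mRNA clusters in the interquartile range of the members' signal (7.27 to 8.96), 9.69% were lower and 6.08% higher. The values of the 3 TM arrays did not overlap those of the 3 control arrays for 13 members on the lower side and 7 on the higher side. These were 15.7% and 8.43% of the members, where the figures for all clusters were 7.49% and 20.5%. For the mRNA clusters in the interquartile range of the members' signal they were 17.4% and 13.3%. The log2 difference was negative for 60 of 83 members, with a median of −0.057, against a median of 0.037 over all clusters and 0.031 over mRNA clusters. With the arrays centred on a common median, the unadjusted counts were 31 lower and 2 higher (14.2% and 5.52% of all clusters), and 43 members were without overlap on the lower side and 2 on the higher (18.4% and 8.26%). With quantile normalization the unadjusted counts were 10 lower and 5 higher (7.5% and 8.52% of all clusters), and 13 and 12 were without overlap (10% and 13.1%). Single arrays moved the count of 7 lower members to 3 without TM 1, TM 2 or control 1, to 4 without control 2, to 11 without control 3 and to 17 without TM 3. Shares of all clusters were not taken with single arrays left out, so a shift of the members cannot be told from one of all clusters.

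In replicates 1 and 2 alone, 25 of the 83 members were lower with TM at an unadjusted p under 0.05 and 3 were higher, against 12.1% of all clusters lower and 14.8% higher. The adjusted p was under 0.05 in limma for 0 members and for 1.22% of all clusters. The log2 difference was negative for 65 of 83, and its median was −0.10, against 0.035 for all clusters. Among the 5884 mRNA clusters in the interquartile range of the members' signal (7.27 to 8.96), 14.3% were lower and 13.2% higher, with a median of 0.0087. Whether members pass the adjusted threshold depended on the fit. When only clusters above the median signal were fitted, 13 of the 81 members kept fell and 2 rose, where 16.5% of the clusters tested passed. With the trend and robust options 10 fell and 1 rose (6.77% of all clusters), with centring 3 fell and 0 rose (2.77%), while 0 passed in limma with quantile normalization (0.891% of all clusters) or with a replicate block (0.0415%). The 3 that fell with the filter, with the trend and robust options and with centring were NDUFB6, UQCRB and COX7A2. The shares of clusters passing in these fits count both directions, and shares by direction were not taken. With the filter and with centring, the share of members that passed was near that of the clusters tested. The median of −0.10 was −0.082 without control 1, −0.12 without control 2, −0.093 without TM 1 and −0.11 without TM 2. With 1 array left in a group, only the size was read.

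The replicate 3 arrays lay between the others in the mean of the members. The mean over the 83 members was 8.07, 8.09 and 8.16 in TM 1, 2 and 3, against 8.18, 8.17 and 8.11 in control 1, 2 and 3. TM 3 read above control 3 in 58 members (69.9%), near the share of 65.3% over all clusters, and the median difference of 0.058 was near the 0.065 of all clusters. Among mRNA clusters in the interquartile range of the members' signal the share was 40.0% and the median −0.035. On a scale from 0 (the mean of control 1 and 2) to 1 (the mean of TM 1 and 2), the member mean lay at 0.144 in TM 3 and at 0.698 in control 3. Replicates 1 and 2 were singled out through ER stress genes, which are no members.

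**Figure D1:**
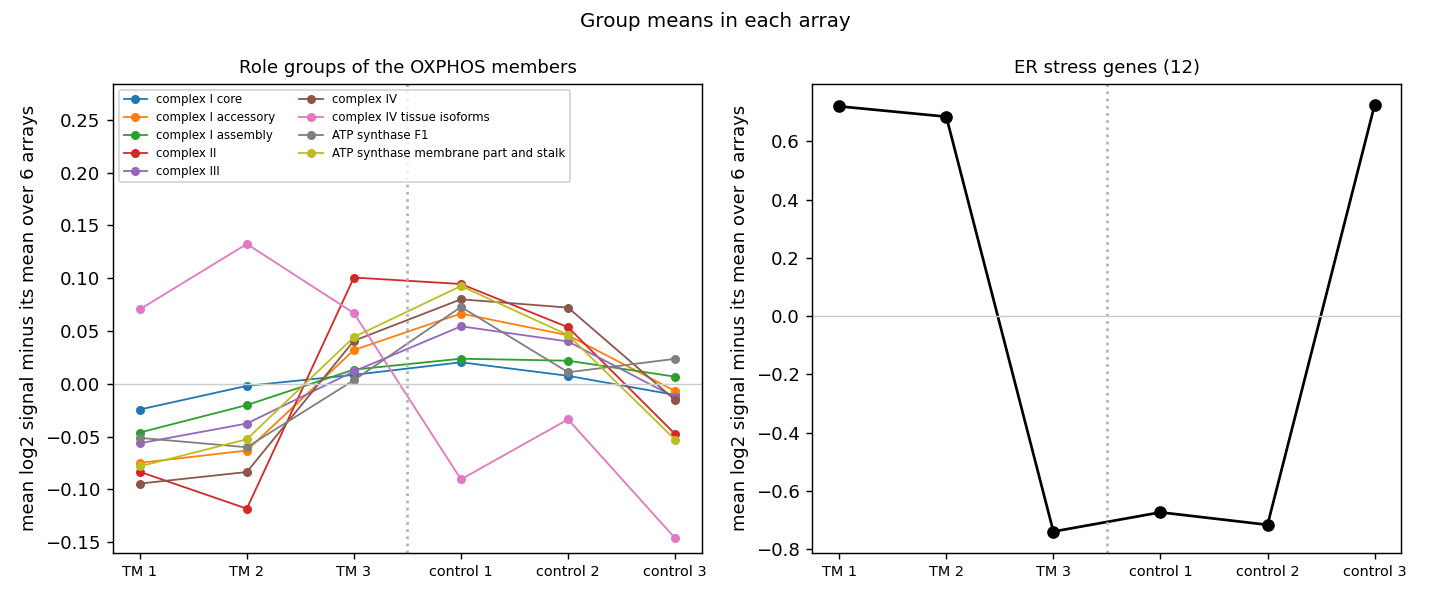
Mean log2 signal of each role group of the OXPHOS members (left, groups of 3 or more) and of 12 ER stress genes (right) in each array, minus its mean over 6 arrays; the dotted line parts TM from control arrays. Most role groups are lower in TM 1 and 2 than in control 1 and 2, the complex IV tissue isoforms are higher in all 3 TM arrays, and the ER stress genes of TM 3 and control 3 lie near the level of the other label.

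Complex I, the NADH dehydrogenase, gave 40 members in 3 groups. In replicates 1 and 2 at an unadjusted p under 0.05, 1 of 5 core subunits was lower, 8 of 27 accessory subunits were lower and 2 of 8 assembly factors were lower, and 0 members of the 3 groups were higher by the same limma test, against 12.1% of all clusters lower and 14.8% higher. With 5 core subunits and 8 assembly factors, 1 and 2 lower members are few to set against that share. The median log2 differences were −0.074, −0.12 and −0.079.

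NDUFB6, an accessory subunit of the membrane arm, had the most negative difference of all members in both comparisons. It read 5.94, 5.74 and 6.21 in TM 1, 2 and 3, against 6.36, 6.40 and 6.35 in control 1, 2 and 3. The 3 TM arrays lay below the 3 control arrays, with TM 3 nearest to them. The log2 difference was −0.40 over all 6 arrays (standard error 0.11, limma adjusted p = 0.158) and −0.53 in replicates 1 and 2 (standard error 0.09, limma adjusted p = 0.0545). NDUFB5, also an accessory subunit of the membrane arm, read 7.71, 7.53 and 7.87 with TM and 7.92, 7.98 and 7.80 in the control arrays, where control 3 lay below TM 3. Of the NDUFB genes, NDUFB3 differed by −0.27 and NDUFB4 by −0.18 in replicates 1 and 2, whereas NDUFB7 stood at 0.060 and NDUFB11 at 0.056.

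NDUFS4, an accessory subunit of the matrix arm whose loss in people causes Leigh syndrome, kept its direction in every array. It read 7.45, 7.51 and 7.45 with TM and 7.65, 7.61 and 7.66 in control arrays, with no overlap and with the replicate 3 arrays beside the others of their label. Its difference was −0.17 over all 6 arrays (standard error 0.05, limma adjusted p = 0.157). The accessory NDUFA subunits NDUFA2, NDUFA8 and NDUFA12 differed by −0.22, −0.22 and −0.23 in replicates 1 and 2, and the acyl carrier protein NDUFAB1 by −0.18. NDUFB2 stood at −0.015 over all 6 arrays and at −0.088 in replicates 1 and 2. Its second cluster, of low signal and not a member, read 2.94, 3.01 and 3.52 with TM and 3.90, 3.49 and 3.27 in controls.

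The core subunits went both ways. NDUFV2, which carries an iron-sulfur cluster of the NADH-oxidising module, read 7.70, 7.67 and 7.83 with TM, against 7.93, 7.87 and 7.83 in controls. The groups did not overlap, but by a narrow margin, since TM 3 and control 3 were nearly equal, and the difference in replicates 1 and 2 was −0.22 (standard error 0.06, limma adjusted p = 0.112). NDUFS7, which holds the last iron-sulfur cluster before ubiquinone, read 7.33, 7.47 and 7.33 with TM, against 7.21, 7.24 and 7.21 in controls. All 3 TM arrays lay above the controls, with a difference of 0.15 over all 6 arrays (standard error 0.06, limma adjusted p = 0.204). NDUFV1, the partner of NDUFV2 that binds NADH, also had no overlap on the higher side, with a difference of 0.057, and NDUFS1 had none on the lower side, at −0.065.

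Assembly factors differed among themselves. NDUFAF4, which acts early in complex I assembly, read 6.39, 6.38 and 6.39 with TM and 6.53, 6.46 and 6.63 in controls, with no overlap and a difference of −0.16 (standard error 0.06, limma adjusted p = 0.207). A processed copy, NDUFAF4P1, is listed on the array, so the source of this signal is uncertain. NDUFAF2, a late assembly factor, read 8.51, 8.46 and 8.55 with TM and 8.63, 8.74 and 8.53 in controls, and in replicates 1 and 2 it differed by −0.20. NDUFAF5, which modifies NDUFS7, differed there by −0.17, while its partner NDUFAF8 read 8.75, 8.83 and 8.80 with TM and 8.64, 8.73 and 8.69 in controls, without overlap, a difference of 0.11 (limma adjusted p = 0.285). NDUFAF3 also had no overlap on the higher side, at 0.10.

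Complex II, succinate dehydrogenase, is the only complex with no mitochondrially encoded subunit. It also serves in the tricarboxylic acid cycle. SDHD, a membrane anchor, read 8.60, 8.44 and 8.72 with TM, against 8.81, 8.72 and 8.59 in controls. TM 3 lay above control 3, and the difference was −0.24 in replicates 1 and 2 (standard error 0.08, limma adjusted p = 0.138) and −0.12 over all 6 arrays. The flavoprotein SDHA, at 8.85, 8.87 and 9.06 with TM and 9.03, 8.98 and 8.87 in controls, and the other anchor SDHC, at 9.66, 9.69 and 9.89 with TM and 9.81, 9.83 and 9.76 in controls, had the same shape, with −0.14 each in replicates 1 and 2. SDHB was not analysed here.

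Complex III passes electrons from ubiquinol to cytochrome c. UQCRB, its ubiquinone-binding subunit, read 5.33, 5.34 and 5.60 with TM and 5.71, 5.82 and 5.56 in controls. TM 1 and 2 lay below all 3 controls, while TM 3 lay just above control 3. The difference was −0.43 in replicates 1 and 2 (standard error 0.07, limma adjusted p = 0.0545) and −0.27 over all 6 arrays (limma adjusted p = 0.200). Its pseudogene UQCRBP1 has its own cluster, so reads of the copies are not surely parted. UQCRHL, a near copy of the hinge protein gene UQCRH, read 8.60, 8.50 and 8.71 with TM and 8.84, 8.89 and 8.70 in controls, a difference of −0.32 in replicates 1 and 2 (standard error 0.07, limma adjusted p = 0.076). Its signal cannot be told apart from that of UQCRH.

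Other members of complex III differed in direction. UQCR11, the smallest subunit, read 7.55, 7.63 and 7.44 with TM and 7.39, 7.32 and 7.55 in controls, a difference of 0.24 in replicates 1 and 2 (standard error 0.07, limma adjusted p = 0.109), and control 3 lay above TM 3. The core proteins UQCRC1 and UQCRC2 stood at 0.063 and −0.055 there.

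Complex IV, cytochrome c oxidase, had 10 members of general use, of which 6 were lower and 0 higher in replicates 1 and 2 at an unadjusted p under 0.05 in limma (12.1% and 14.8% of all clusters), with a median of −0.17. COX7B, a small membrane subunit, read 8.25, 8.14 and 8.42 with TM and 8.51, 8.57 and 8.37 in controls. The difference was −0.34 in replicates 1 and 2 (standard error 0.07, limma adjusted p = 0.0713) and −0.21 over all 6 arrays (limma adjusted p = 0.237). COX7A2, the widely used form of subunit VIIa, read 7.98, 7.93 and 8.29 with TM, against 8.29, 8.32 and 8.06 in controls. In this gene TM 3 lay at the level of control 1 and 2 and control 3 near TM 1 and 2, and the difference in replicates 1 and 2 was −0.35 (standard error 0.06, limma adjusted p = 0.0613). COX5A, a subunit on the matrix side, read 9.09, 9.11 and 9.20 with TM and 9.30, 9.24 and 9.22 in controls, with no overlap and −0.17 in replicates 1 and 2. COX6C, COX6B1 and COX5B differed there by −0.26, −0.23 and −0.16.

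Other members of complex IV differed less. COX4I1 stood at −0.066 in replicates 1 and 2, COX6A1 at −0.057 and COX8A at −0.025. COX6A1 read 11.50, 11.52 and 11.46 with TM, against 11.58, 11.55 and 11.57 in controls, without overlap, and its copy COX6A1P2 is listed beside it. COX7A2L, which joins complexes III and IV into supercomplexes, read 7.43, 7.57 and 7.49 with TM and 7.47, 7.50 and 7.57 in controls, a difference of −0.018 over all 6 arrays (standard error 0.06, limma adjusted p = 0.882).

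Of the 5 tissue isoforms of complex IV, COX6A2 and COX4I2 were without overlap on the higher side and the other 3 overlapped. The difference from their widely used counterparts was not tested. COX6A2, the heart and skeletal muscle form of subunit VIa, read 6.89, 7.11 and 6.76 with TM and 6.49, 6.54 and 6.61 in controls. Each TM array lay above each control, also in replicate 3, with a difference of 0.37 over all 6 arrays (standard error 0.09, limma adjusted p = 0.147) and 0.48 in replicates 1 and 2 (standard error 0.09, limma adjusted p = 0.066). COX4I2, the lung form of subunit IV, read 6.88, 6.87 and 6.79 with TM and 6.65, 6.64 and 6.62 in controls, again without overlap, a difference of 0.21 over all 6 arrays (standard error 0.05, limma adjusted p = 0.145). COX7A1, the muscle form of subunit VIIa, read 6.51, 6.52 and 6.44 with TM and 6.34, 6.46 and 6.23 in controls, a difference of 0.15 (limma adjusted p = 0.278). The testis forms COX7B2 and COX8C differed by 0.026 and 0.15 over all 6 arrays and by 0.0028 and −0.011 in replicates 1 and 2.

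COX6A2, COX4I2 and COX7A1 lie in a range of signal where mRNA clusters in general read higher with TM. Among 3410 mRNA clusters at a mean log2 signal of 6 to 7, the median difference in replicates 1 and 2 was 0.11, with 32.6% higher and 8.91% lower at an unadjusted p under 0.05. Of the 14 members in that range 6 were lower and 2 were higher, with a median of −0.12. The part of signal level in the isoform values was not tested. Without the 5 tissue isoforms, 25 of 78 members were lower and 1 was higher in replicates 1 and 2. Markers of other cell types were also without overlap on the higher side, the endothelial ones in 4 of 5, the fibroblast ones in 4 of 6 and the leukocyte ones in 1 of 5, against 20.5% of all clusters and 27.2% of mRNA clusters, and their part in the isoform values was not tested.

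**Figure D2:**
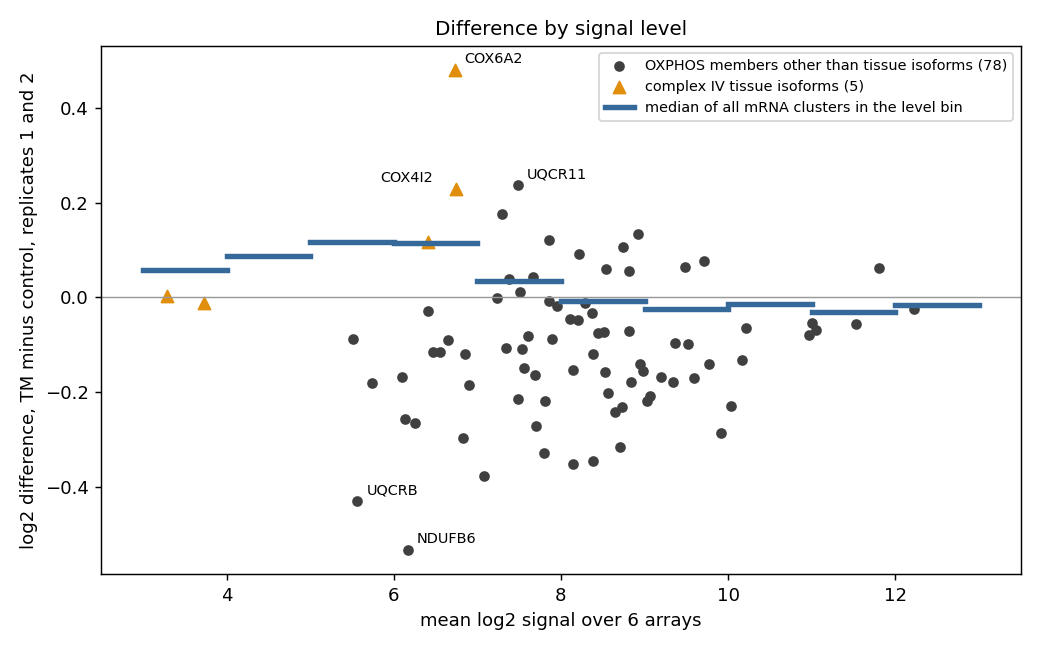
Log2 difference (TM minus control, replicates 1 and 2) of each member against its mean log2 signal over 6 arrays, with the median of all mRNA clusters in each unit of signal (bars). Most members lie below the bars, while COX6A2 and COX4I2 lie above the bar at 6 to 7, which stands at 0.11.

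The ATP synthase gave 17 members and its inhibitor. In replicates 1 and 2 at an unadjusted p under 0.05, 2 of 5 members of the catalytic F1 part and 3 of 12 of the membrane part and stalk were lower and 0 were higher in limma, against 12.1% and 14.8% of all clusters. ATP5F1E, the epsilon subunit of the central stalk, read 6.72, 6.63 and 6.78 with TM and 6.97, 6.97 and 6.86 in controls. There was no overlap, with a difference of −0.23 over all 6 arrays (standard error 0.06, limma adjusted p = 0.152) and −0.30 in replicates 1 and 2 (standard error 0.06, limma adjusted p = 0.0767). Its processed copy ATP5F1EP2 has its own cluster on the array, so this value is uncertain as to source. ATP5F1C, the gamma subunit that turns inside the catalytic head, read 9.82, 9.69 and 9.96 with TM and 10.06, 10.03 and 9.93 in controls, a difference of −0.29 in replicates 1 and 2 (limma adjusted p = 0.092). The catalytic beta subunit ATP5F1B stood at 0.032 over all 6 arrays and the delta subunit ATP5F1D at 0.044.

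ATP5MC1, ATP5MC2 and ATP5MC3 encode the same mature subunit c of the rotating ring from different genes. ATP5MC3 read 6.08, 6.17 and 6.34 with TM and 6.40, 6.39 and 6.13 in controls, a difference of −0.27 in replicates 1 and 2 (standard error 0.06, limma adjusted p = 0.0887), with TM 3 above control 3. ATP5MC1 stood at −0.034 and ATP5MC2 at −0.0075 in the same arrays, and the difference between the 3 genes was not tested. ATP5MGL, a near copy of the subunit g gene ATP5MG, read 6.94, 6.83 and 7.14 with TM and 7.26, 7.26 and 7.04 in controls, a difference of −0.38 in replicates 1 and 2 (standard error 0.07, limma adjusted p = 0.0634), whereas ATP5MG itself stood at −0.090. The signals of these copies may be shared. ATP5PB, subunit b of the peripheral stalk, read 10.09, 10.11 and 10.17 with TM and 10.26, 10.21 and 10.18 in controls, with no overlap and −0.090 over all 6 arrays. The inhibitor ATP5IF1, which stops the synthase from running backwards, stood at −0.042.

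**Figure D3:**
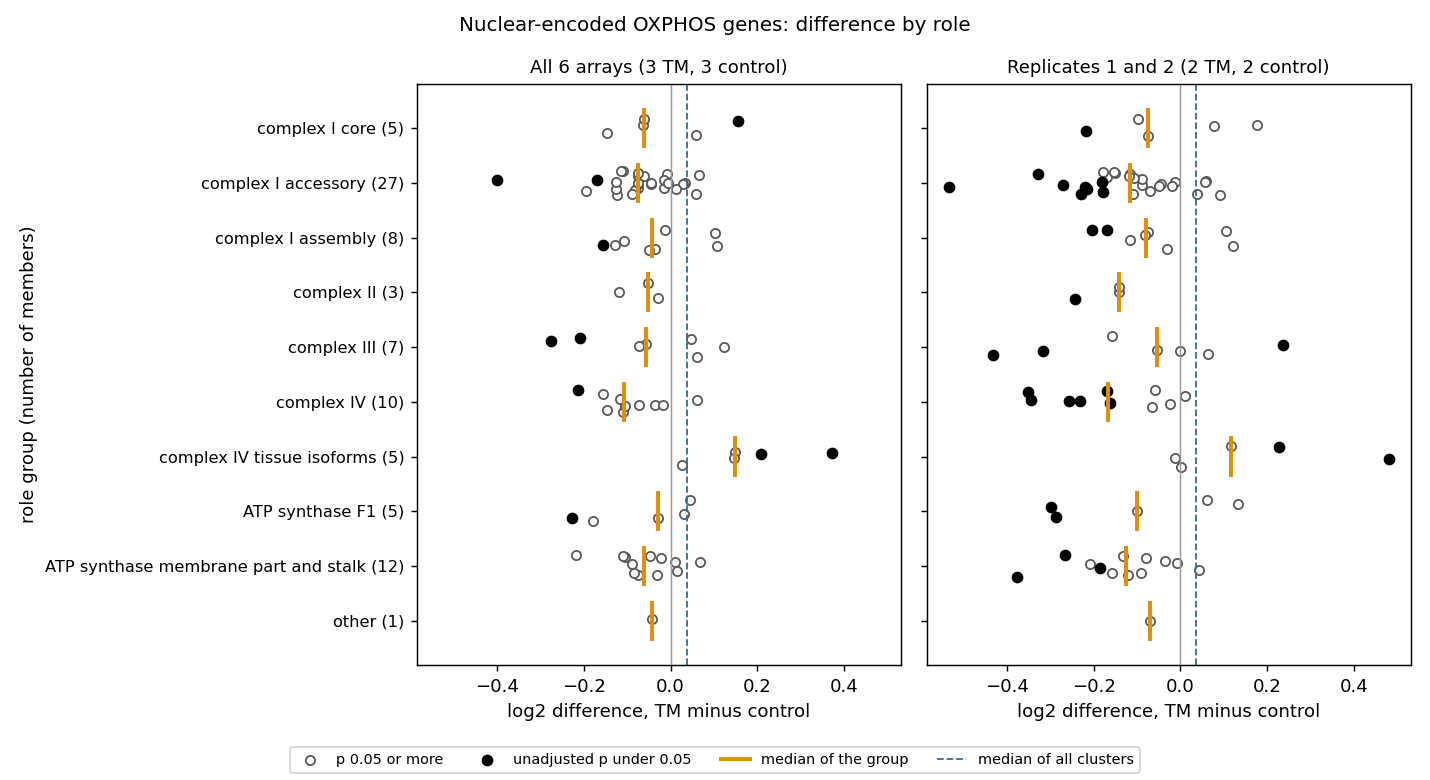
Log2 difference (TM minus control) of each of the 83 members by role group, over all 6 arrays (left) and in replicates 1 and 2 (right). Filled points have an unadjusted limma p under 0.05, orange bars are group medians and the dashed line is the median of all clusters. The medians are below 0 in each group except the complex IV tissue isoforms, at 0.15 and 0.12.

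**Figure D4:**
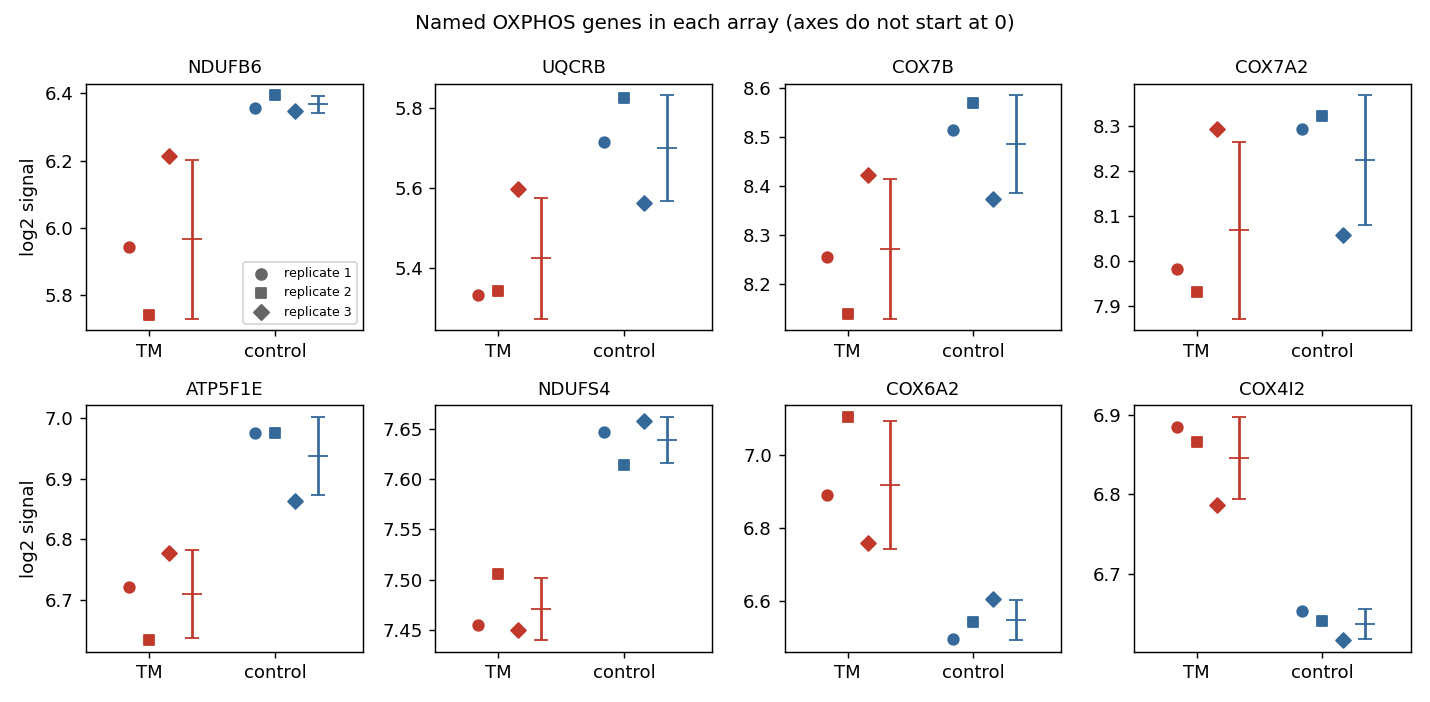
Log2 signal of 8 members in each TM array (red) and control array (blue), with marker shape for the replicate and the mean ± SD (n = 3 each) to the right. NDUFB6, NDUFS4 and ATP5F1E do not overlap on the lower side and COX6A2 and COX4I2 on the higher side, whereas in UQCRB, COX7B and COX7A2 the TM 3 array lies above control 3.

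The difference was weakly related to properties of the members. Mean signal had a part in choosing the cluster of a gene, gene length and promoter GC content had none. Across the 83 members, Spearman's rho between gene length and the difference was −0.34 with all 6 arrays included and −0.27 in replicates 1 and 2. For mean signal the values were 0.028 and 0.035. For promoter GC content, over 68 members, both were 0.20. Without the 5 tissue isoforms of complex IV, rho was −0.29 and −0.23 for gene length and 0.18 and 0.17 for mean signal, over 78 members. For promoter GC content it was 0.25 and 0.26, over 65 members. These are descriptions across genes that share arrays, and genes are not independent replicates.

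The lists of neighbouring genes gave the following counts at an unadjusted p under 0.05 in limma, to be read against 12.1% of all clusters lower and 14.8% higher in replicates 1 and 2, and 5.14% and 15.3% over all 6 arrays. Of 30 measured assembly factors of complexes II, III and IV, 10 were lower (33.3%) and 2 higher in replicates 1 and 2, with a median of −0.080. FASTKD2, an RNA-binding protein of mitochondria, read 7.59, 7.54 and 7.71 with TM and 7.93, 7.84 and 7.83 in controls, and LYRM7, which places the iron-sulfur protein in complex III, read 7.50, 7.43 and 7.57 with TM and 7.75, 7.69 and 7.69 in controls. SCO2, a copper chaperone of complex IV, was the other way, at 8.04, 8.08 and 7.93 with TM and 7.87, 7.81 and 7.82 in controls. Each of these 3 genes was without overlap, TM 3 included.

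Of 74 mitochondrial ribosomal proteins, which translate the mitochondrially encoded subunits, 20 were lower (27.0%) and 1 was higher in replicates 1 and 2, and 16 lower (21.6%) and 0 higher over all 6 arrays. MRPL50, at 7.65, 7.69 and 7.98 with TM and 8.15, 8.11 and 7.92 in controls, fell by 0.46 in replicates 1 and 2 (standard error 0.06, limma adjusted p = 0.0456), the only gene of these lists apart from the ER stress genes to pass. Of 11 further assembly factors of complex I 0 were lower and 0 higher in replicates 1 and 2 by limma, and over all 6 arrays ECSIT was higher by 0.12. Over all 6 arrays, 4 of the 11 (36.4%) were without overlap on the lower side and 1 on the higher. The counts were 23 (31.1%) and 6 of the 74 ribosomal proteins. They were 9 (30%) and 1 of the 30 factors of complexes II, III and IV. All clusters gave 7.49% and 20.5%, and mRNA clusters 11.3% and 27.2%. Of 3 measured assembly factors of the ATP synthase, ATPAF1 was lower over all 6 arrays, by −0.13.

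Of 8 genes of cytochrome c, cytochrome c1, haem attachment and the enzymes that feed ubiquinone, CYCS, cytochrome c itself, was lower over all 6 arrays, at 9.51, 9.48 and 9.55 with TM and 9.65, 9.63 and 9.71 in controls, and ETFA was lower in replicates 1 and 2. In replicates 1 and 2 the next 3 lists had shares of lower genes near that of all clusters. Of 14 regulators of mitochondrial biogenesis 2 (14.3%) were lower there, POLG2, the accessory subunit of the mitochondrial DNA polymerase, by −0.37 and the coactivator PPARGC1B by −0.21. Of 17 genes of the tricarboxylic acid cycle 2 (11.8%) were lower and 1 was higher, the last being PC, pyruvate carboxylase, at 0.29. Of 18 glycolysis genes 2 (11.1%) were lower, LDHA and PFKM, and 1 was higher, the hexokinase gene HK2, at 0.37, with 8.44, 8.42 and 7.99 with TM and 8.09, 8.02 and 8.49 in controls. For HK2 and PC the array labelled control 3 lay above TM 3. Over all 6 arrays, 5 regulators (35.7%), 8 cycle genes (47.1%) and 1 glycolysis gene (5.56%) were without overlap on the lower side. On the higher side the counts were 1, 1 and 2. The shares of all clusters were 7.49% and 20.5%, and those of mRNA clusters 11.3% and 27.2%. The subunits encoded in mitochondrial DNA were not analysed here.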

How the data were processed

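Total RNA was measured on 6 GeneChip HTA 2.0 arrays. Each value is a log2 signal of a transcript cluster that the authors summarised and normalized before it was deposited, with MAS5 named in the submitters' processing notes. How background was corrected is not given in the sources used here, nor is the build. No further scaling was applied. Symbols are those of the array annotation, and gene classes, lengths and promoters from RefSeq (GRCh38.p14). A further 9 clusters with several symbols and 7 clusters of pseudogenes or antisense genes were left out, as was the second cluster of NDUFB2.

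TM was compared with control by limma 3.58.1 (lmFit and eBayes, two-sided) in R 4.3.3 over all 67528 clusters with Benjamini-Hochberg adjustment at 0.05, with all 6 arrays and with replicates 1 and 2. The number of arrays limits precision, and an exact permutation test of 3 arrays against 3 cannot go below a p of 0.1. The deviations of same-numbered arrays had r of −0.18, −0.31 and −0.53. Since the replicate 3 arrays lie near the other label in ER stress genes, this cannot settle whether the numbers pair the arrays, and they were not treated as pairs. Alternatives were other scalings, a signal filter, eBayes options, the replicate block, the mean of a gene's clusters, a fold change of 1.2 and arrays left out. The fit was tested on simulated data with independent noise, no shift of whole arrays and added differences larger than those of most members. It does not show how well differences of the members' size are found. Genes with values given were the members of each role group with the smallest p, isoform sets and SDH genes, and those with the highest or lowest signal. Other genes named were chosen after their values were seen, and the members and lists were chosen with earlier results of these data known. Python 3.11.15 with matplotlib 3.10.9 drew the figures.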

Additional observations from a re-analysis of the deposited data

How the results depend on the processing

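With all 6 arrays, the count of 7 lower members was 25 without both replicate 3 arrays, 31 with centring, 3 with the replicate block, 2 with a fold change of 1.2 and 3 to 17 when each array was left out; the count of 3 higher members was 5 with quantile normalization, 1 with the fold change and 2 to 3 with arrays left out. Members without overlap on the lower side were 13, and 54 without both replicate 3 arrays, where fewer arrays have to part, 43 with centring and 13 to 38 with arrays left out. On the higher side they were 7, and 10 without both replicate 3 arrays, 2 with centring, 12 with quantile normalization and 8 to 11 with arrays left out. Shares of all clusters without overlap were taken only with all 6 arrays, as deposited, centred or quantile normalized. The counts with arrays left out have no such share and cannot be set against all clusters. The median difference of −0.057 was −0.10 without both replicate 3 arrays and −0.13 with centring, and that of −0.10 in replicates 1 and 2 was −0.14 with centring. In replicates 1 and 2 the adjusted count of 0 was 3 with centring, 15 in the upper part of clusters by signal, which kept 81 members and tests fewer clusters, and 11 with trend and robust options; the count of 25 was 11 with the fold change and 12 to 19 with arrays left out, and the count of 3 was 1 with the fold change and 1 to 4 with arrays left out. The replicate block gave 20 lower and 3 higher members there, and 0 passed the adjusted threshold in limma. Shares of all clusters at an unadjusted p were not taken with the block, with the fold change or with single arrays left out. Those counts cannot be set against all clusters, and a shift of the members cannot be told from one of all clusters. With all 6 arrays, lower members no longer outnumbered higher ones with the replicate block (3 and 3) or without TM 1 (3 and 3). The medians stayed negative. The cause of these shifts was not tested. Of 345 values of 15 members run one by one under the alternatives, 325 kept their side of the threshold, 20 passed it and 0 reversed. The 15 members were taken for the smallest p of their role group in these same arrays. For them the replicate block, the eBayes options, the signal filter and the mean of a gene's clusters leave the difference unchanged. A reversal could not occur under those settings, so the count of 0 does not show how firm the directions of the members are. Dim isoforms are limited by signal over background, since detection calls were not used here.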

Other observations

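The 9 clusters left out of the members because they carry several symbols went in both directions. The cluster shared by COX7C and MIR3607 read 7.03, 6.99 and 7.29 in the TM arrays and 7.36, 7.29 and 7.21 in the control arrays. The cluster shared by MIR1307 and ATP5MK read 9.55, 9.50 and 9.73 with TM and 9.87, 9.76 and 9.61 in controls. The cluster shared by UQCRH and UQCRHL read 7.69, 7.61 and 7.84 with TM and 7.84, 7.79 and 7.72 in controls. The cluster that holds COX6B2, the testis form of subunit VIb, together with GARIN5B read 6.84, 6.97 and 6.86 with TM and 6.71, 6.69 and 6.65 in controls, so that each TM array lay above each control. The cluster of YJEFN3 and NDUFA13 had no overlap either, at 7.54, 7.60 and 7.57 with TM and 7.51, 7.52 and 7.42 in controls. The cluster of NDUFS8 and MIR4691 read 9.70, 9.72 and 9.49 with TM and 9.60, 9.51 and 9.60 in controls. That of PTCD1 and ATP5MF-PTCD1 read 7.39, 7.38 and 7.35 with TM and 7.32, 7.36 and 7.37 in controls. The cluster of NDUFB8 and SEC31B read 6.37, 6.38 and 6.49 with TM and 6.44, 6.44 and 6.32 in controls, and that of NDUFC2 and KCTD14 read 6.68, 6.74 and 6.79 with TM and 6.77, 6.73 and 6.65 in controls. The processed copy ATP5F1EP2 read 6.90, 6.97 and 7.06 with TM and 7.14, 7.15 and 7.09 in controls, below each control in each TM array, as its parent ATP5F1E was. No test was made on these clusters apart from the fit over all clusters.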
